A study of Homo sapiens with 6 samples.

Results

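The genes described here encode the cytochrome P450 (CYP), UDP-glucuronosyltransferase (UGT), sulphotransferase (SULT), alcohol dehydrogenase (ADH) and aldehyde dehydrogenase (ALDH) enzymes. They were chosen by gene symbol among rows annotated as protein coding, with the UGT genes limited to the 1A, 2A and 2B groups and with CYP51A1, a P450 of cholesterol synthesis, left out. This gave 113 of the 58735 genes in the deposited tables, made up of 55 CYP, 19 ALDH, 19 UGT, 13 SULT and 7 ADH genes.

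CYP enzymes add oxygen to fatty acids, sterols, retinoids and foreign compounds, using electrons that most of them receive from a shared reductase. UGT and SULT enzymes then attach glucuronic acid or sulphate, which makes the products easier to excrete, while ADH and ALDH enzymes oxidise alcohols to aldehydes and aldehydes to acids. In the airway these enzymes meet inhaled compounds and lipid aldehydes, and several of them also set the local supply of retinoic acid and active vitamin D.

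The libraries came from A549, an established lung adenocarcinoma line, grown in RPMI medium with 10% serum and stably changed by lentivirus, in 3 groups of 2 libraries. T133A cells carried HOXB9, a homeobox transcription factor, in a form with alanine in place of a threonine. KO cells were labelled PLVX-HOXB9 KO, a HOXB9 knockout. WT cells carried PLVX-HOXB9, the unchanged factor. No empty-vector or untreated cells were among the groups, so WT is itself a HOXB9-transduced line. It is not labelled whether T133A and WT cells kept an intact HOXB9 gene of their own, or whether a group came from 1 clone. Nor is it labelled that the libraries of a group were separate cultures, and the p-values therefore reflect a spread between samples that may be technical.

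Libraries held 16299059 to 18745432 counts. HOXB9 stood at 275 and 210 CPM (CPM being counts scaled by TMM-adjusted library size) in T133A, at 14.5 and 15.4 CPM in KO and at 222 and 217 CPM in WT, and KO was 14.7-fold lower than WT by edgeR's quasi-likelihood test (adjusted p = 3.27e-16). The counts do not separate the construct from the cells' own gene. Mitochondrial transcripts took 8.51% to 8.92% of counts in T133A, 4.45% to 5.60% in KO and 7.84% to 7.87% in WT. Markers of simple epithelium (KRT8, KRT18, KRT19, EPCAM, CDH1, MUC1) summed to 7214 to 8710 CPM in T133A, 5976 to 7239 CPM in KO and 7810 to 8388 CPM in WT. By the same test (adjusted p under 0.05), 3 of these 6 were lower and 0 higher in KO than WT. Their median log2 fold change there was -0.58. Of all genes tested, 23% were lower and 23.6% higher in KO than WT. In T133A against WT 0 of the 6 were called higher and 0 lower. Of the 8 markers of alveolar type II cells, the origin often given for A549, ABCA3 and LAMP3 carried nearly all counts, while the surfactant genes and NKX2-1 were at or near 0 in all groups. That list summed to 142 to 158 CPM in T133A, 88.6 to 93.1 CPM in KO and 139 to 140 CPM in WT. Of its 3 tested genes, 2 were lower and 0 higher in KO than WT, beside the same 23% and 23.6% of all genes. The part of either marker list in the enzyme results was not tested.

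Levels can be compared between genes only per unit of length, and for this the FPKM values deposited by the authors were used. Of the 113 genes, 34 averaged at least 1 FPKM over the 6 libraries and 13 at least 10 FPKM, while 15 had no count in any library. The most abundant was ALDH1A1, with a mean of 2658 FPKM, followed by ALDH3A1 with 624 FPKM and CYP24A1 with 320 FPKM. The leading members of the other families stood far below these, at 27.2 FPKM for ADH5, 7.31 FPKM for SULT2B1 and 5.02 FPKM for UGT1A9.

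The low-count filter left 56 members for testing. A gene can pass it through the group in which it is high, so the counts of calls that follow are descriptions of these 56 and not of the whole families. In KO cells 29 of the 56 were called lower than in WT and 7 higher (adjusted p under 0.05, edgeR's quasi-likelihood test), where 23% of all 16340 genes tested were called lower and 23.6% higher. T133A cells had 6 members higher and 7 lower than in WT, where 5.58% of all genes were higher and 3.97% lower. Against KO, T133A had 26 members higher and 9 lower, where 20.3% of all genes were higher and 19.6% lower. The 3 comparisons share libraries and are not independent. The median log2 fold change of the tested members was -0.23 in T133A against WT, -0.53 in KO against WT and 0.52 in T133A against KO, beside 0.00, 0.00 and -0.01 over all genes tested. Bulk RNA cannot tell fewer cells of a type from less RNA per cell.

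Among the 34 members that averaged at least 5 CPM, KO had 20 lower and 5 higher than WT, where 27.3% of 11301 genes were lower and 26.6% higher. Correcting counts for GC content and length put the median of all genes at 0.16 in KO against WT and at -0.14 in T133A against KO. The share of higher calls over all genes then became 65.8% in place of 50.7% in KO against WT and 34.9% in place of 50.9% in T133A against KO. With it, the members stood at 11 higher and 28 lower in KO against WT, and at 26 higher and 16 lower in T133A against KO. With scaling by library size only, the share of higher calls in T133A against WT was 45.0% in place of 58.5%.

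**Figure D1:**
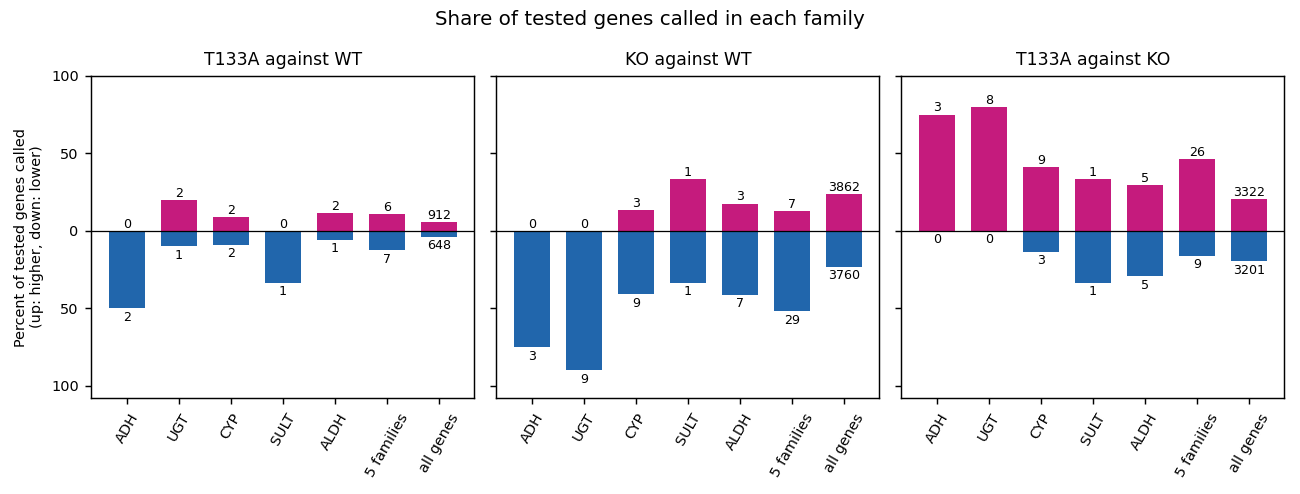
Percent of tested genes called in each family, with higher calls drawn upward and lower calls downward from 0, for T133A against WT, KO against WT and T133A against KO; the number on each bar is the count of genes. In KO against WT the bars of the 5 families reach 29 lower calls against 7 higher, while the bars of all genes are nearly even, with 3760 lower and 3862 higher.

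In the ADH family 3 of 4 tested genes were lower in KO than WT and 2 in T133A than WT, beside 23% and 3.97% of all genes. ADH1C, a class I enzyme that oxidises ethanol and retinol, stood at 22.9 and 19.6 CPM in T133A, 0.546 and 1.29 CPM in KO and 79.7 and 80.1 CPM in WT. T133A thus lay between the other groups, which did not overlap. KO was 84.5-fold lower than WT (log2 fold change -6.40, SE 0.214, edgeR adjusted p = 1.64e-16), T133A was 3.76-fold lower than WT (-1.91, SE 0.143, adjusted p = 1.68e-09), and T133A was 22.4-fold higher than KO (4.49, SE 0.229, adjusted p = 2.73e-13). ADH6, a class V enzyme whose substrates are little known, followed the same order, with 15.6 and 17.8 CPM in T133A, 0.304 and 1.40 CPM in KO and 26.8 and 25.5 CPM in WT. Its fall was 29.5-fold in KO (-4.88, SE 0.277, adjusted p = 2.08e-12) and 1.56-fold in T133A (-0.65, SE 0.187, adjusted p = 0.0292). The T133A call was lost with DESeq2 (adjusted p = 0.689), without T133A replicate 1 (0.143) and without WT replicate 1 (0.0945).

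ADH5, the widely expressed enzyme that clears formaldehyde bound to glutathione, went its own way. It had 135 and 138 CPM in T133A, 132 and 143 CPM in KO and 123 and 127 CPM in WT, and none of its comparisons passed (log2 fold change 0.12 in T133A and 0.14 in KO against WT, with adjusted p = 0.511 and 0.283). After correction for GC and length, ADH5 was called higher in KO than WT (log2 fold change 0.41, edgeR adjusted p = 2.86e-04). That correction put the median of all genes at 0.16 in KO against WT. ADH4, a class II enzyme named after its values were seen, had few counts, with 7 and 6 in T133A, 0 and 1 in KO and 14 and 11 in WT. ADH1A, ADH1B and ADH7 had none. All 7 genes lie on the reverse strand of chromosome 4 (GRCh38) between 99070978 and 99435737, in the order ADH5, ADH4, ADH6, ADH1A, ADH1B, ADH1C and ADH7. The ADH family as a whole summed to 174 and 175 CPM in T133A, 132.6 and 146 CPM in KO and 230 and 234 CPM in WT, with ADH5 giving 78.1% of that sum in T133A, 98.7% in KO and 54.0% in WT.

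The promoter of ADH1C is shown because it belongs to the member with the largest fitted fall among those named by rule. It covers the 250 bases before the RefSeq start (GRCh38.p14, chr4:99352747-99352996, reverse strand), and that start lies inside the gene span of the deposited tables. Capitals mark the letters TTTAT, or ATAAA on the other strand, a core bound by HOX proteins of the posterior groups. The ATAAA match lies 28 to 24 bases before the start. ADH1A and ADH1B, which had no counts, have the same letters at that distance.
ADH1C promoter: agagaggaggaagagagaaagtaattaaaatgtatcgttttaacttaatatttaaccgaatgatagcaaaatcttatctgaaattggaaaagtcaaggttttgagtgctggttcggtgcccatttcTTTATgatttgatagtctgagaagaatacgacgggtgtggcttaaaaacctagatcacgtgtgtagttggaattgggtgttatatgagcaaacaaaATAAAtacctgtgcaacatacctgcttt

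The UGT1A enzymes, which clear bilirubin, phenols and many drugs, were lower in KO, and none was called lower in T133A against WT. UGT1A9, which acts on phenols, had 16.6 and 15.3 CPM in T133A, 2.61 and 3.18 CPM in KO and 17.2 and 18.5 CPM in WT. KO was 6.13-fold lower than WT (log2 fold change -2.62, SE 0.187, adjusted p = 1.16e-10), and T133A against WT did not pass (-0.16, SE 0.155, adjusted p = 0.59). UGT1A1, the bilirubin-conjugating enzyme, had 20.1 and 17.0 CPM in T133A, 2.79 and 3.39 CPM in KO and 11.4 and 12.2 CPM in WT. The T133A libraries stood above the WT libraries and the KO libraries below them. UGT1A1 was 3.799-fold lower in KO than in WT (-1.93, SE 0.197, adjusted p = 4.11e-08), 5.97-fold higher in T133A than in KO (2.58, SE 0.192, adjusted p = 2.36e-10) and 1.57-fold higher in T133A than in WT (0.65, SE 0.164, adjusted p = 0.0117). The rise in T133A against WT was lost without T133A replicate 1 (adjusted p = 0.0837), WT replicate 1 (0.161) or WT replicate 2 (0.0754).

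All 5 tested UGT1A genes were called lower in KO than in WT and higher in T133A than in KO. Over all genes these shares were 23% and 20.3%. The remaining tested members were named after their values were seen: UGT1A6 fell 8.78-fold in KO, UGT1A7 5.16-fold and UGT1A3 5.15-fold, with the UGT1A3 call lost without KO replicate 2 (log2 fold change -1.34, adjusted p = 0.294) or WT replicate 2 (-2.35, adjusted p = 0.0526). The UGT1A3 call in T133A against KO was lost without KO replicate 2 (adjusted p = 0.24) or T133A replicate 2 (0.479). UGT1A7 was called 2.02-fold higher in T133A than in WT (adjusted p = 0.0297), a call lost without T133A replicate 2 or either WT library. UGT1A genes sit in an unusual locus on chromosome 2 (233617645 to 233773310, forward strand), where each has its own leading exon and all share the downstream exons, so 40.6% to 80% of the exonic length of the tested members is shared with other genes. Counts of single UGT1A members are therefore uncertain. Summed over all 9 UGT1A genes, the level was 44.3 and 42.1 CPM in T133A, 6.13 and 7.535 CPM in KO and 35.3 and 36.5 CPM in WT. The sum was lower in KO than WT (log2 fold change -2.39, SE 0.148, adjusted p = 9.34e-12), and T133A against WT missed the threshold (0.27, SE 0.128, adjusted p = 0.215).

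The UGT2 enzymes, which conjugate steroids and bile acids, fell in KO and in part in T133A. UGT2B15, which inactivates androgens, had 2.47 and 2.23 CPM in T133A, 0.121 and 0.215 CPM in KO and 8.18 and 7.86 CPM in WT, from 43 and 38, 2 and 4, and 140 and 141 counts. As with ADH1C, T133A lay between KO and WT without overlap. KO was 45.1-fold lower than WT (log2 fold change -5.49, SE 0.380, adjusted p = 6.56e-11) and T133A 3.40-fold lower than WT (-1.77, SE 0.246, adjusted p = 2.52e-05).

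Other UGT2 genes were named after their values were seen. UGT2B10, which conjugates nicotine in the liver, had 7 and 13 counts in T133A, none in KO and 17 and 25 in WT. Against a floor of 3 counts per library, KO was at least 6.95-fold lower than WT, and T133A at least 3.40-fold higher than KO. UGT2A3 and UGT2B7 were also called lower in KO than WT (2.93-fold for UGT2B7 and 6.72-fold for UGT2A3), while UGT2B11, with 2 to 17 counts per library, passed in no comparison. The sum over the 10 UGT2 genes was 6.09 and 6.94 CPM in T133A, 1.52 and 2.64 CPM in KO and 14.0 and 15.6 CPM in WT. It was lower than in WT in T133A (log2 fold change -1.18, SE 0.199, adjusted p = 2.74e-04) and in KO (-2.81, SE 0.230, adjusted p = 1.04e-09). UGT2 genes are similar in sequence and may trade reads.

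The promoter of UGT2B15 (GRCh38.p14, chr4:68670653-68670902, reverse strand) is shown for comparison with that of ADH1C, since T133A lay between KO and WT for both genes. Capitals mark the same HOX letters. ADH6, CYP4F3 and CYP4F12 were also called lower than WT in both groups with T133A above KO, and their promoters are not shown. Whether these letters bear on that order was not tested.
UGT2B15 promoter: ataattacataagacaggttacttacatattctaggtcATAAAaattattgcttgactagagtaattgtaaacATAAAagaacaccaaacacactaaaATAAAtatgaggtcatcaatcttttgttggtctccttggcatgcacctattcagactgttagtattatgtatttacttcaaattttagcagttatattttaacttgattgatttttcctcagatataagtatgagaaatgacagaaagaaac

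RefSeq promoters were found for 85 of the 113 members, and the motif letters were searched on both strands of the 250 bases before each start. TTTAT occurred in 13 of 25 promoters of members lower in KO than WT, 3 of 5 of members higher, 2 of 14 of members tested and called neither way, 30 of 41 of members not tested, and 33.7% of all 27305 promoters. Its reverse complement overlaps the letters of the TATA box (TATAAA). The xenobiotic response element core GCGTG occurred in 5 of 25 lower, 2 of 5 higher, 5 of 14 called neither way, 6 of 41 not tested and 31.9% of all. The antioxidant response element core TGACNNNGC occurred in 3 of 25 lower, 1 of 5 higher, 1 of 14 called neither way, 3 of 41 not tested and 11% of all. These matches describe letters and are not binding sites.

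**Figure D2:**
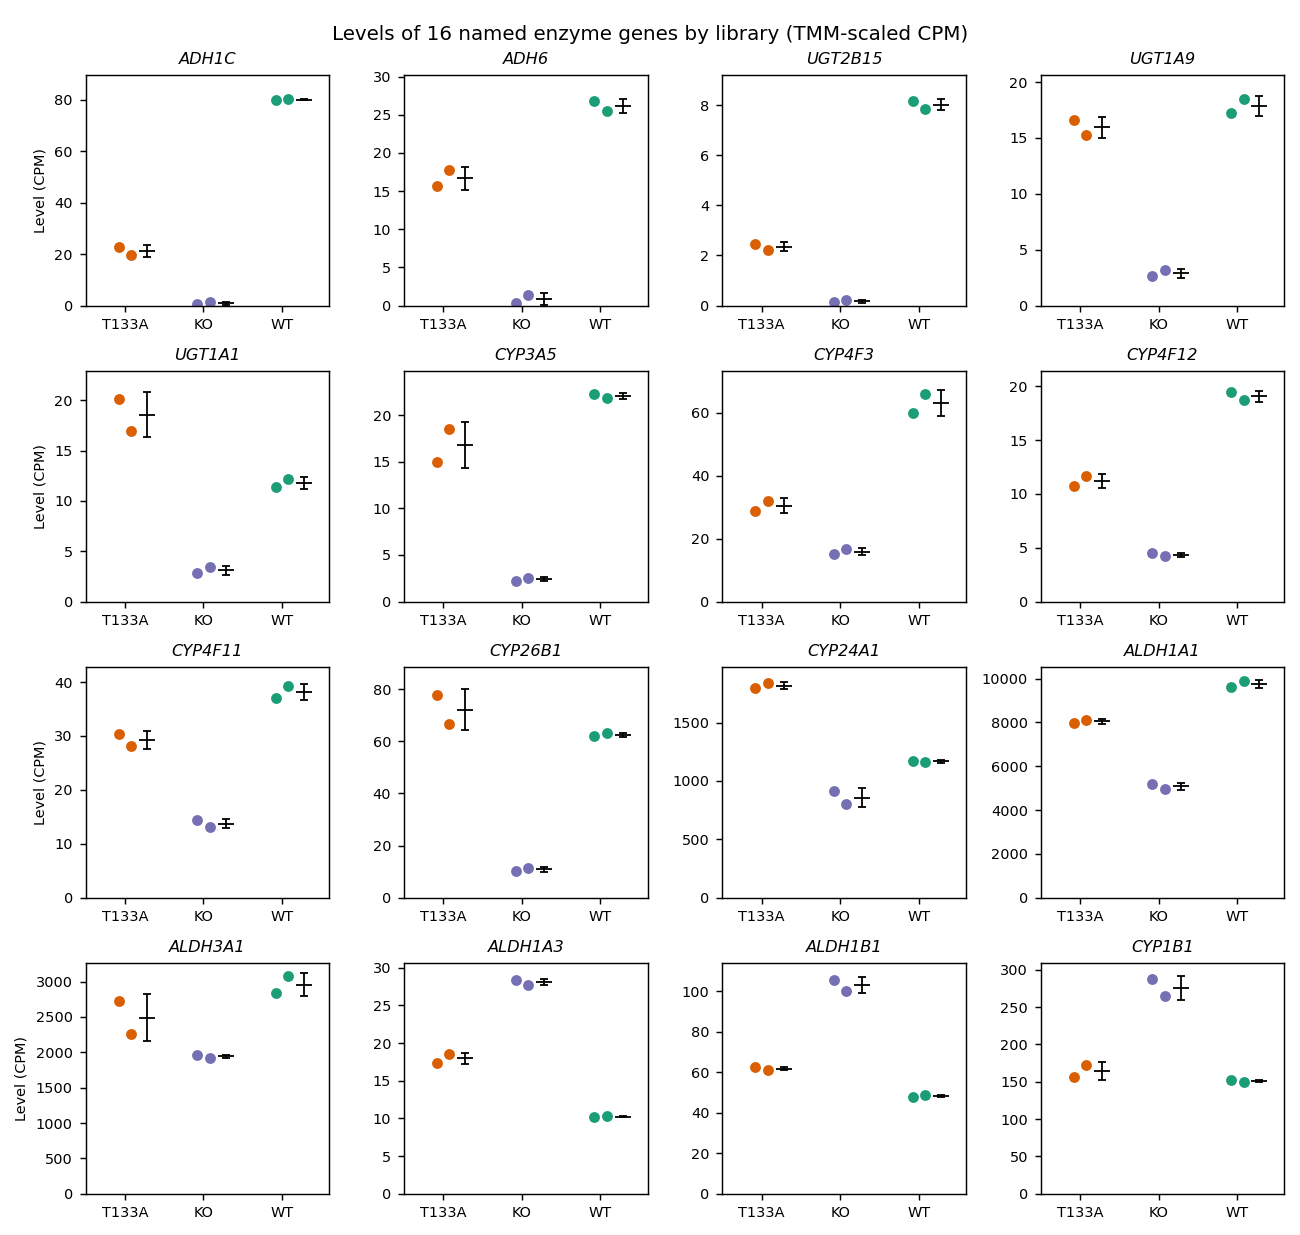
Levels of 16 enzyme genes in TMM-scaled CPM on linear axes from 0, with 1 point per library and, beside each pair, the mean and SD of the 2 libraries, for T133A, KO and WT. For ADH1C, ADH6 and UGT2B15 the T133A libraries lie between KO and WT, UGT1A9 and CYP26B1 are low in KO alone, and ALDH1A3 and ALDH1B1 are highest in KO.

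Among the CYP enzymes of foreign compounds, members moved in opposite directions in KO. CYP3A5, which oxidises drugs and steroids and is the main CYP3A form of the lung, had 15.0 and 18.5 CPM in T133A, 2.25 and 2.53 CPM in KO and 22.3 and 21.9 CPM in WT. It was 9.19-fold lower in KO than WT (log2 fold change -3.20, SE 0.191, adjusted p = 5.36e-12) and 6.98-fold higher in T133A than KO (2.80, SE 0.194, adjusted p = 6.7e-11). T133A against WT did not pass (-0.40, SE 0.152, adjusted p = 0.11), although it passed without T133A replicate 2 (adjusted p = 0.0283). CYP2S1, an enzyme of epithelia, had 88.1 and 66.2 CPM in T133A, 43.2 and 52.6 CPM in KO and 75.4 and 78.2 CPM in WT, a 1.60-fold fall in KO (-0.68, SE 0.131, adjusted p = 1.98e-04). CYP1B1, which activates polycyclic hydrocarbons and oestrogens, went the other way, with 156 and 173 CPM in T133A, 288 and 265 CPM in KO and 152 and 150.0 CPM in WT. It was 1.83-fold higher in KO than in WT (0.87, SE 0.102, adjusted p = 3.24e-07), and 13.0% of its exonic length is shared with other genes.

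CYP1A1, named after its values were seen, is the classical target of the aryl hydrocarbon receptor. It had 9 and 16 counts in T133A, 74 and 102 in KO and 9 and 3 in WT, so KO stood above both other groups while T133A and WT overlapped. KO was 14.3-fold higher than WT (log2 fold change 3.84, SE 0.430, adjusted p = 1.78e-07) and T133A 6.82-fold lower than KO (-2.77, SE 0.379, adjusted p = 3.86e-06). CYP2D6, CYP2F1 and CYP2W1 were tested with 5 to 24 counts per library and passed in no comparison. The promoter of CYP1A1 (GRCh38.p14, chr15:74725529-74725778, reverse strand) is shown because it belongs to the member with the largest rise in KO. Capitals mark GCGTG, and the RefSeq start lies inside the gene span of the deposited tables. The HOX letters ATAAA also occur in it, 31 to 27 bases before the start, and are left in lower case.
CYP1A1 promoter: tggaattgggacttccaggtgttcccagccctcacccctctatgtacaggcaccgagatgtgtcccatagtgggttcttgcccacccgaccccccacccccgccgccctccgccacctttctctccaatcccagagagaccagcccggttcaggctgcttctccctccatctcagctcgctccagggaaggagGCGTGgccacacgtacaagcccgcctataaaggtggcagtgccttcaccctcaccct

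The CYP4F enzymes hydroxylate the ends of fatty acids and leukotrienes, and they were lower in KO and, for CYP4F3 and CYP4F12, in T133A. CYP4F3, which inactivates a leukotriene that attracts neutrophils, had 28.8 and 32.1 CPM in T133A, 15.0 and 16.7 CPM in KO and 60.03 and 65.9 CPM in WT, 3 groups without overlap. T133A was 2.07-fold lower than WT (log2 fold change -1.05, SE 0.124, adjusted p = 2.79e-06) and KO 3.96-fold lower than WT (-1.99, SE 0.131, adjusted p = 2.93e-11). CYP4F12 had 10.7 and 11.7 CPM in T133A, 4.49 and 4.20 CPM in KO and 19.5 and 18.7 CPM in WT, with a 1.70-fold fall in T133A (-0.77, SE 0.157, adjusted p = 0.00218) and a 4.39-fold fall in KO (-2.14, SE 0.174, adjusted p = 1.07e-09). CYP4F11, which prefers drugs and vitamin K, had 30.4 and 28.1 CPM in T133A, 14.3 and 13.1 CPM in KO and 37.1 and 39.2 CPM in WT. It fell 2.78-fold in KO (-1.48, SE 0.135, adjusted p = 7.25e-09), and T133A against WT narrowly missed the threshold (-0.38, SE 0.128, adjusted p = 0.0607) but passed after correction for GC and length (-0.46, adjusted p = 0.00315) and with scaling by library size only (-0.46, adjusted p = 0.0289). These genes lie close together on chromosome 19 and are similar enough to trade reads. Their sum, with CYP4F2, CYP4F8 and CYP4F22, was lower than WT in T133A (-0.76, SE 0.104, adjusted p = 1.94e-05) and in KO (-1.83, SE 0.109, adjusted p = 4.83e-12). CYP4V2, an enzyme of ocular fatty acid metabolism named after its values were seen, fell 1.98-fold in KO, and CYP2J2 and CYP2U1 passed in no comparison.

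Among the CYP enzymes of retinoids, 1 of 3 tested was lower in KO than WT and 1 higher in T133A than WT. Over all genes these shares were 23% and 5.58%. CYP26B1, which degrades retinoic acid, had 77.9 and 66.6 CPM in T133A, 10.2 and 11.5 CPM in KO and 62.1 and 63.1 CPM in WT. KO was 5.77-fold lower than WT (log2 fold change -2.53, SE 0.133, adjusted p = 5.88e-13), T133A was 6.66-fold higher than KO (2.74, SE 0.134, adjusted p = 1.37e-13), and T133A against WT did not pass (0.21, SE 0.117, adjusted p = 0.304). CYP27C1, a retinoid desaturase of skin named after its values were seen, had 55 and 49 counts in T133A, 22 and 26 in KO and 25 and 27 in WT. Its 2.03-fold rise in T133A against WT (adjusted p = 0.0437) was lost without any 1 of the T133A and WT libraries (adjusted p = 0.0582 to 0.269). The CYP27C1 call in T133A against WT was also lost with DESeq2 and with scaling by library size only. CYP26A1 passed in no comparison.

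CYP24A1, which inactivates vitamin D and was the most abundant CYP gene per length, had 1795 and 1841 CPM in T133A, 914 and 801 CPM in KO and 1175 and 1160 CPM in WT. The T133A libraries were above WT and the KO libraries below it. T133A was 1.56-fold higher than WT (log2 fold change 0.64, SE 0.106, adjusted p = 2.38e-04), KO was 1.36-fold lower than WT (-0.44, SE 0.106, adjusted p = 0.00152), and T133A was 2.12-fold higher than KO (1.08, SE 0.107, adjusted p = 2.74e-08). The members that act upstream of it, CYP2R1 and CYP27B1, which convert vitamin D to its active form, were named after their values were seen. CYP2R1 fell 1.45-fold in KO (adjusted p = 0.0103), a call lost without KO replicate 2 (adjusted p = 0.195) or WT replicate 2 (adjusted p = 0.0514), and CYP27B1, at 24 to 45 counts, passed in no comparison. CYP7B1, which hydroxylates oxysterols, had 3 and 3 counts in T133A, 13 and 20 in KO and 6 and 5 in WT, and its rise in KO (adjusted p = 0.0418) was lost without any 1 of the 6 libraries. CYP39A1 and CYP20A1 passed in no comparison.

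Of the SULT genes only 3 were tested. SULT2B1, which sulphates cholesterol in epithelia, had 24.0 and 21.6 CPM in T133A, 16.4 and 17.7 CPM in KO and 23.7 and 21.2 CPM in WT. Its 1.32-fold fall in KO against WT (log2 fold change -0.40, SE 0.141, adjusted p = 0.0247) was lost without KO replicate 1 (adjusted p = 0.129), WT replicate 1 (0.26) or WT replicate 2 (0.0591). SULT1A1, which sulphates phenols, was lower in T133A than in both other groups, with 2.07 and 1.999 CPM in T133A, 3.34 and 5.22 CPM in KO and 4.50 and 3.96 CPM in WT. T133A was 2.07-fold lower than WT (-1.05, SE 0.282, adjusted p = 0.0184), a call lost without T133A replicate 1 (adjusted p = 0.0537) or WT replicate 1 (0.127) and with DESeq2 (0.0606), and 2.11-fold lower than KO (-1.08, SE 0.282, adjusted p = 0.00391), lost without KO replicate 2 (0.107). SULT1C2, a phenol sulphotransferase, had 5.92 and 6.70 CPM in T133A, 5.34 and 7.96 CPM in KO and 4.03 and 4.46 CPM in WT. Its rise in KO (0.65, SE 0.230, adjusted p = 0.0236) was lost without KO replicate 2 (0.31, adjusted p = 0.377), without either WT library and with DESeq2 (0.0764).

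The 3 ALDH enzymes that make retinoic acid from retinal moved apart. ALDH1A1 had 7959 and 8131 CPM in T133A, 5198 and 4956 CPM in KO and 9609 and 9884 CPM in WT. KO was 1.92-fold lower than WT (log2 fold change -0.94, SE 0.114, adjusted p = 5.42e-07) and T133A 1.58-fold higher than KO (0.66, SE 0.113, adjusted p = 6.16e-05). T133A against WT did not pass (-0.28, SE 0.113, adjusted p = 0.135), but did with DESeq2 (adjusted p = 0.0205), with scaling by library size only (0.0275) and without either KO library (0.0115 and 0.0111). ALDH1A3 had 17.4 and 18.5 CPM in T133A, 28.3 and 27.8 CPM in KO and 10.2 and 10.3 CPM in WT, so WT was the lowest and KO the highest with no overlap. It was 1.76-fold higher in T133A than WT (0.81, SE 0.146, adjusted p = 5.89e-04) and 2.75-fold higher in KO than WT (1.46, SE 0.143, adjusted p = 2.3e-08); 28.6% of its exonic length is shared with other genes. ALDH1A2, named after its values were seen, had 31 and 29 counts in T133A, 1 and 3 in KO and 20 and 17 in WT, an 8.79-fold fall in KO (adjusted p = 5.71e-04). Per length, ALDH1A1 stood at a mean of 1778 FPKM in KO beside 4.85 FPKM for ALDH1A3.

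Of the 8 tested ALDH enzymes that detoxify other aldehydes, 1 was higher and 3 lower in KO than WT. That is 12.5% higher and 37.5% lower, beside 23.6% and 23% of all genes. ALDH3A1, which acts on aromatic and lipid aldehydes, had 2722 and 2255 CPM in T133A, 1959 and 1925 CPM in KO and 2840 and 3074 CPM in WT. It was 1.52-fold lower in KO than WT (log2 fold change -0.61, SE 0.114, adjusted p = 1.57e-04). T133A against WT did not pass (-0.25, SE 0.114, adjusted p = 0.192), though it did after correction for GC and length (adjusted p = 0.0151; 0.0396 with the replicate block added), with scaling by library size only (0.0429) and without T133A replicate 1 (0.0313). The call in T133A against KO was lost without that library (adjusted p = 0.0895). ALDH1B1, a mitochondrial enzyme of acetaldehyde and retinal, had 62.3 and 61.1 CPM in T133A, 106 and 100.1 CPM in KO and 47.8 and 48.6 CPM in WT, a 2.13-fold rise in KO (1.09, SE 0.107, adjusted p = 2.06e-08). Its 1.28-fold rise in T133A (0.36, SE 0.108, adjusted p = 0.0367) was lost without T133A replicate 1 (adjusted p = 0.0591), WT replicate 1 (0.374) or WT replicate 2 (0.31), and with scaling by library size only (0.0868). ALDH3A2, which oxidises long-chain fatty aldehydes, had 290 and 284 CPM in T133A, 305 and 309 CPM in KO and 319 and 329 CPM in WT, and passed in no comparison.

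Named after their values were seen, ALDH2, the main acetaldehyde enzyme of mitochondria, fell 1.66-fold in KO (adjusted p = 8.73e-06), and ALDH3B1 was lower in T133A (1.44-fold, adjusted p = 0.0022) and in KO (1.24-fold, adjusted p = 0.0199), where its call was lost without KO replicate 1 or either WT library. ALDH6A1, which completes a step of valine breakdown, had 25.6 and 24.6 CPM in T133A, 13.5 and 16.5 CPM in KO and 33.3 and 28.8 CPM in WT, 2.06-fold lower in KO than WT (log2 fold change -1.04, SE 0.144, adjusted p = 3.69e-06). ALDH4A1, which breaks down proline and shares 41.1% of its exonic length with other genes, rose 1.97-fold in KO (adjusted p = 1.91e-05; named after its values were seen). ALDH5A1, ALDH7A1, ALDH18A1 and ALDH1L2 passed in no comparison. Over the 17 tested ALDH genes the median in KO against WT was -0.18, where that of all genes was 0.00. With the GC and length correction it was 0.07, where that of all genes was 0.16. The sign thus changed along with the shift of all genes, and the family's median was below theirs both ways.

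**Figure D3:**
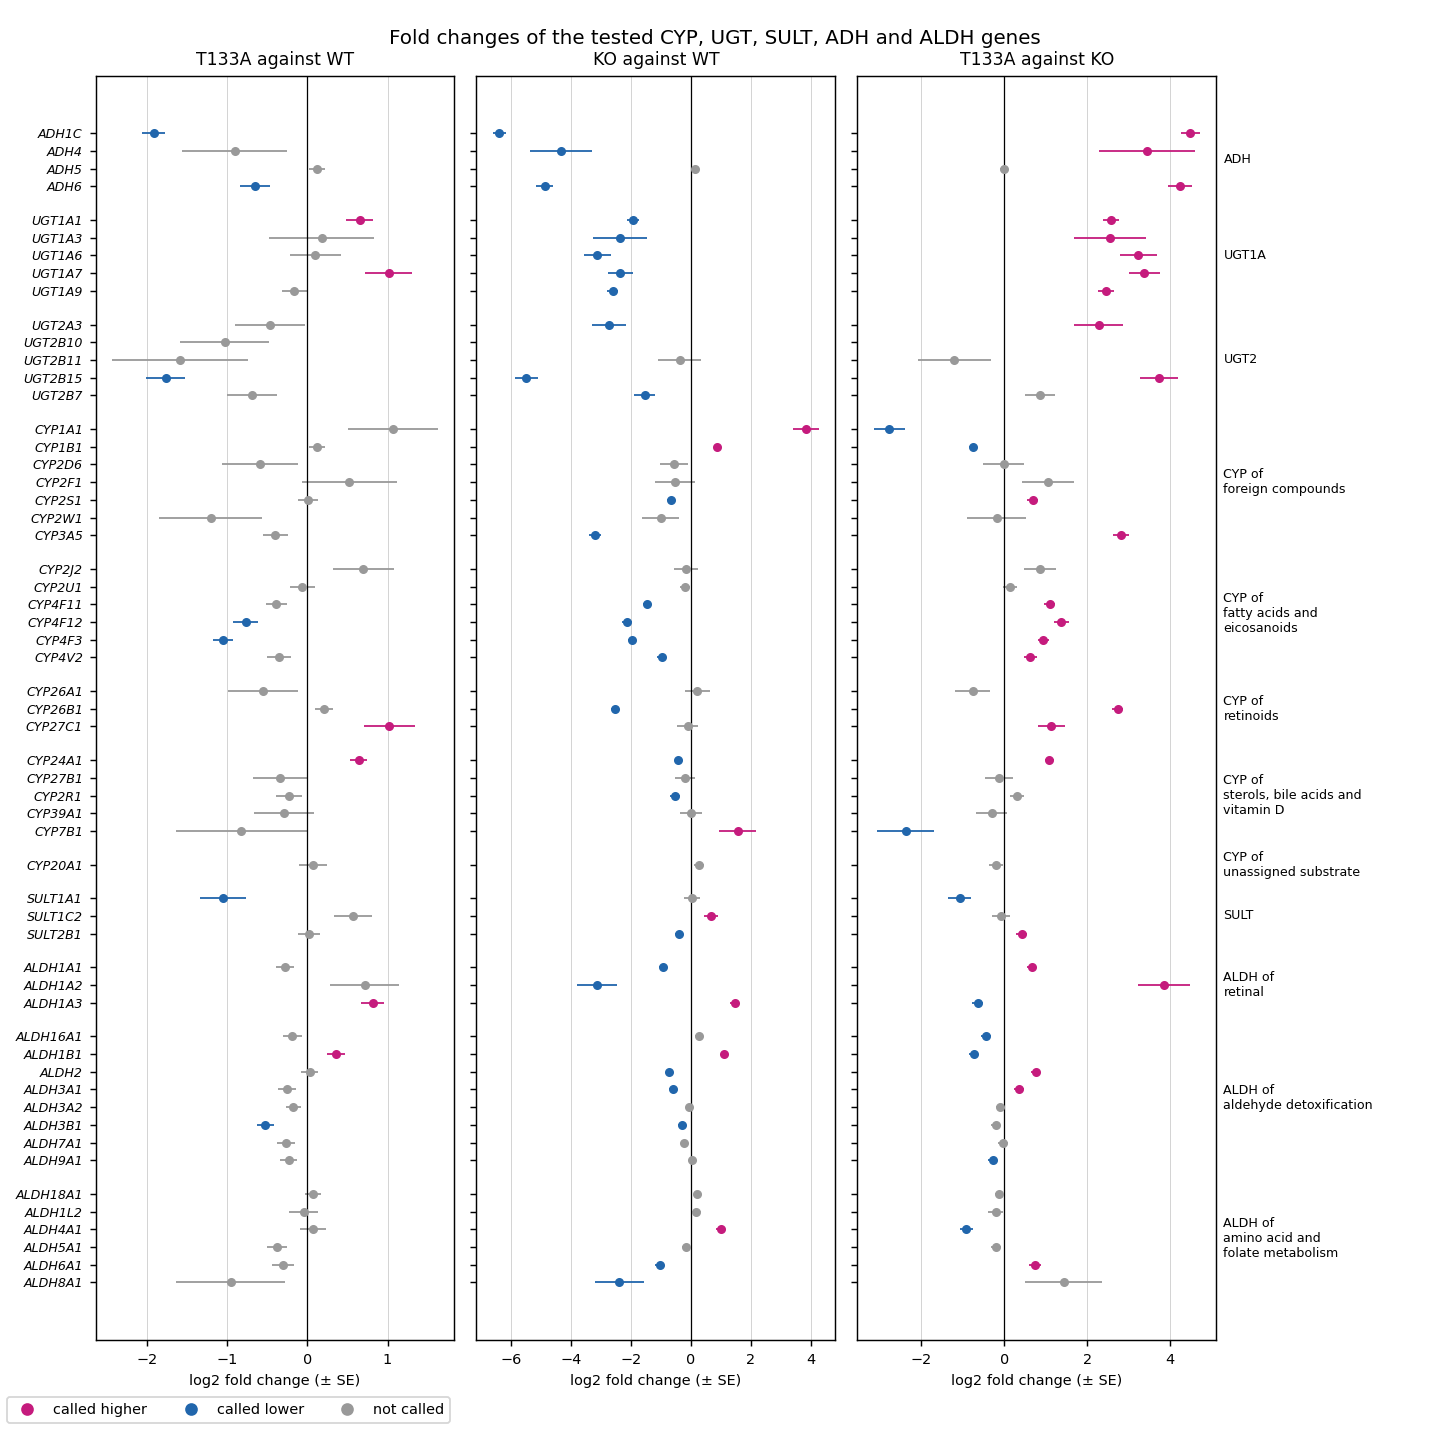
Log2 fold changes with SE from edgeR's quasi-likelihood test for the 56 tested members, grouped by role, in T133A against WT, KO against WT and T133A against KO; colours mark genes called higher, called lower or not called, and each panel has its own axis. UGT2B10 has no point against KO, where it had no counts. In KO against WT, the UGT and ADH rows lie left of 0 except ADH5.

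The 57 members that were not tested had at most 14 counts in any library. They include all 6 CYP genes of steroid hormone synthesis, most hepatic forms of the CYP2 and CYP3 families, and 10 of 13 SULT genes. UGT1A8 had 9 and 7 counts in T133A, none in KO and 14 and 6 in WT, at least 3.36-fold lower in KO than WT against a floor of 3 counts per library, and CYP2C18 and CYP2B6 also had counts in T133A and WT and none in KO. These were named after their values were seen.

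Regulators of these enzymes moved in both directions in KO. Of 22 tested genes of the list, 8 were higher and 8 lower in KO than WT, beside 2 higher and 3 lower in T133A than WT. Here and for the lists that follow, the shares over all genes tested were 23.6% higher and 23% lower in KO against WT, and 5.58% higher and 3.97% lower in T133A against WT. The regulators' median log2 fold change in KO was 0.19, where that of all genes was 0.00. After correction for GC and length it was 0.13, where that of all genes was 0.16, so the list no longer stood above all genes. FOXA1, a pioneer factor of endoderm, had 61.3 and 54.7 CPM in T133A, 18.0 and 18.6 CPM in KO and 89.3 and 78.2 CPM in WT, and fell by 0.53 in T133A (adjusted p = 0.0037) and by 2.19 in KO (adjusted p = 2.2e-12) on the log2 scale. HNF4A, a nuclear receptor that drives many hepatic enzyme genes, was named after its values were seen. It had 27.6 and 20.6 CPM in T133A, 4.49 and 6.46 CPM in KO and 29.4 and 27.4 CPM in WT, and was called lower in KO than WT (log2 fold change -2.37, adjusted p = 4.5e-10). NR5A2, a nuclear receptor of liver and gut, rose by 1.90 in KO. The aryl hydrocarbon receptor gene AHR, also named after its values were seen, was lower in KO, with 64.0 and 78.4 CPM in T133A, 26.8 and 26.9 CPM in KO and 74.1 and 69.5 CPM in WT, while its targets AHRR and TIPARP, which encode repressors of the receptor, were higher. AHRR had 7.53 and 7.70 CPM in T133A, 32.3 and 36.4 CPM in KO and 8.65 and 7.86 CPM in WT. TIPARP had 64.3 and 67.3 CPM in T133A, 127 and 116 CPM in KO and 38.5 and 39.4 CPM in WT, and was also called higher in T133A than WT (log2 fold change 0.76, adjusted p = 4.4e-05).

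Of the 8 hepatocyte markers 3 were tested, with 0 higher and 2 lower in KO and 0 higher and 1 lower in T133A, each against WT. The 8 markers summed to 237 to 242 CPM in T133A, 14.3 to 17.2 CPM in KO and 382 to 412 CPM in WT, but CPS1 gave nearly all of it and APOC3 was at 0 in all groups, with ALB and APOA1 at or near 0. Fibroblast markers summed to 42.7 to 42.9 CPM in T133A, 14.1 to 14.4 CPM in KO and 42.6 to 42.7 CPM in WT, with 2 of 5 tested higher (COL1A1, THY1) and 3 lower (COL3A1, DCN, LUM) in KO than WT. Blood cell markers summed to 11.4 to 12.9 CPM, 5.52 to 10.98 CPM and 8.20 to 11.4 CPM in the same order, nearly all from CD14, and endothelial markers to at most 2.35 CPM in any library. The part of these levels, and of the lower mitochondrial share in KO, in the enzyme results was not tested.

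In the list of retinoid handling genes and receptors, 3 of 12 tested genes were higher and 0 lower in T133A than WT, and 5 higher and 3 lower in KO than WT, which is 41.7% higher and 25% lower beside 23.6% and 23% of all genes (median log2 fold change 0.35 in KO). After correction for GC and length the KO median was 0.27, where that of all genes was 0.16. The counts were then 6 higher and 3 lower in KO, and 4 higher and 1 lower in T133A, each against WT. RDH10, which makes the retinal used by the ALDH1A enzymes, had 266 and 258 CPM in T133A, 33.0 and 44.7 CPM in KO and 207 and 186 CPM in WT, higher in T133A (log2 fold change 0.42, adjusted p = 0.024) and lower in KO (-2.33, adjusted p = 8.6e-13). STRA6, the retinol uptake receptor, had 234 and 208 CPM in T133A, 132.6 and 153 CPM in KO and 109 and 106 CPM in WT, above WT in T133A (1.04) and in KO (0.41). Among the receptors, RARB fell by 0.72 in KO and RARA rose by 0.68.

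For the sulphate and glucuronate donors, 1 of 10 genes was higher and 3 lower in KO than WT, and 0 higher and 1 lower in T133A than WT. In KO this is 10% higher and 30% lower, beside 23.6% and 23% of all genes, with a median log2 fold change of -0.23. After correction for GC and length this median was -0.03, where that of all genes was 0.16. PAPSS2, which makes the sulphate donor, had 216 and 221 CPM in T133A, 49.4 and 55.5 CPM in KO and 192 and 184 CPM in WT (log2 fold change -1.84 in KO against WT, adjusted p = 3.1e-12). UGDH, which makes the glucuronate donor, had 387 and 418 CPM in T133A, 439 and 431 CPM in KO and 557 and 548 CPM in WT, lower in T133A (-0.46) and in KO (-0.34), and UGP2, which supplies it, was lower in KO (-0.48). Enzymes that remove these groups had 0 higher and 4 lower of 6 in KO against WT and none called in T133A against WT. After correction for GC and length, 1 was called higher in T133A than WT. In KO against WT 23% of all genes were lower, and the list's median there was -0.48. The sulphatase gene STS had 45.4 and 44.6 CPM in T133A, 14.4 and 13.4 CPM in KO and 40.3 and 40.0 CPM in WT (-1.53 in KO), and the glucuronidase gene GUSB was lower in KO (-0.81). SUMF2, which belongs to the sulphatase-modifying family, was higher in T133A than KO (0.29).

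P450 electron transfer and haem genes had 6 higher and 1 lower of 12 in KO against WT, and 1 higher and 0 lower in T133A against WT. The KO counts are 50% higher and 8.33% lower, beside 23.6% and 23% of all genes, with a median log2 fold change of 0.26. After correction for GC and length they were 9 higher and 1 lower, with a median of 0.44 beside 0.16 over all genes. FDXR, which passes electrons to mitochondrial P450s, had 59.3 and 54.3 CPM in T133A, 112 and 124 CPM in KO and 49.9 and 55.6 CPM in WT (log2 fold change 1.16 in KO). HMOX1, whose product degrades haem, had 33.5 and 31.4 CPM in T133A, 188 and 279 CPM in KO and 41.8 and 46.8 CPM in WT (2.40 in KO, adjusted p = 7.3e-12). PGRMC2, a haem-binding protein gene, was higher in T133A than WT (0.42) and than KO (0.68).

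Other enzymes of foreign compounds had 6 higher and 17 lower of 35 in KO against WT, and 5 higher and 1 lower in T133A against WT. The KO counts are 17.1% higher and 48.6% lower, beside 23.6% and 23% of all genes, with a median log2 fold change of -0.45. After correction for GC and length they were 10 higher and 16 lower, with a median of -0.25 beside 0.16 over all genes. In T133A against WT the list had 6 higher and 4 lower with that correction. With scaling by library size only it had 3 higher and 3 lower. AOX1, the aldehyde oxidase gene, had 42.3 and 46.3 CPM in T133A, 4.74 and 3.44 CPM in KO and 25.8 and 27.3 CPM in WT, higher in T133A (log2 fold change 0.74, adjusted p = 8.1e-04) and lower in KO (-2.71, adjusted p = 1.2e-11). XDH, the xanthine oxidase gene, had 52.1 and 46.9 CPM in T133A, 5.89 and 5.27 CPM in KO and 9.35 and 9.87 CPM in WT, with a rise of 2.36 in T133A and a fall of 0.79 in KO. MAOA, which oxidises amines, fell by 3.17 in KO, with 27.1 and 23.3 CPM in T133A, 4.07 and 2.96 CPM in KO and 31.5 and 31.3 CPM in WT. EPHX1, the microsomal epoxide hydrolase gene, was lower than WT in T133A (-0.62) and in KO (-0.40). Of 14 tested steroid dehydrogenases and reductases, 3 were higher and 4 lower in KO and 1 higher and 0 lower in T133A against WT. The KO shares, 21.4% higher and 28.6% lower, were near those of all genes. The median of -0.15 was 0.11 after correction for GC and length, where that of all genes was 0.16. HSD17B14 rose by 1.27 and HSD17B10 by 0.77 in KO, HSD17B11 fell by 0.81 in KO, and HSD3B7, of bile acid synthesis, rose by 0.66 in T133A.

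**Figure D4:**
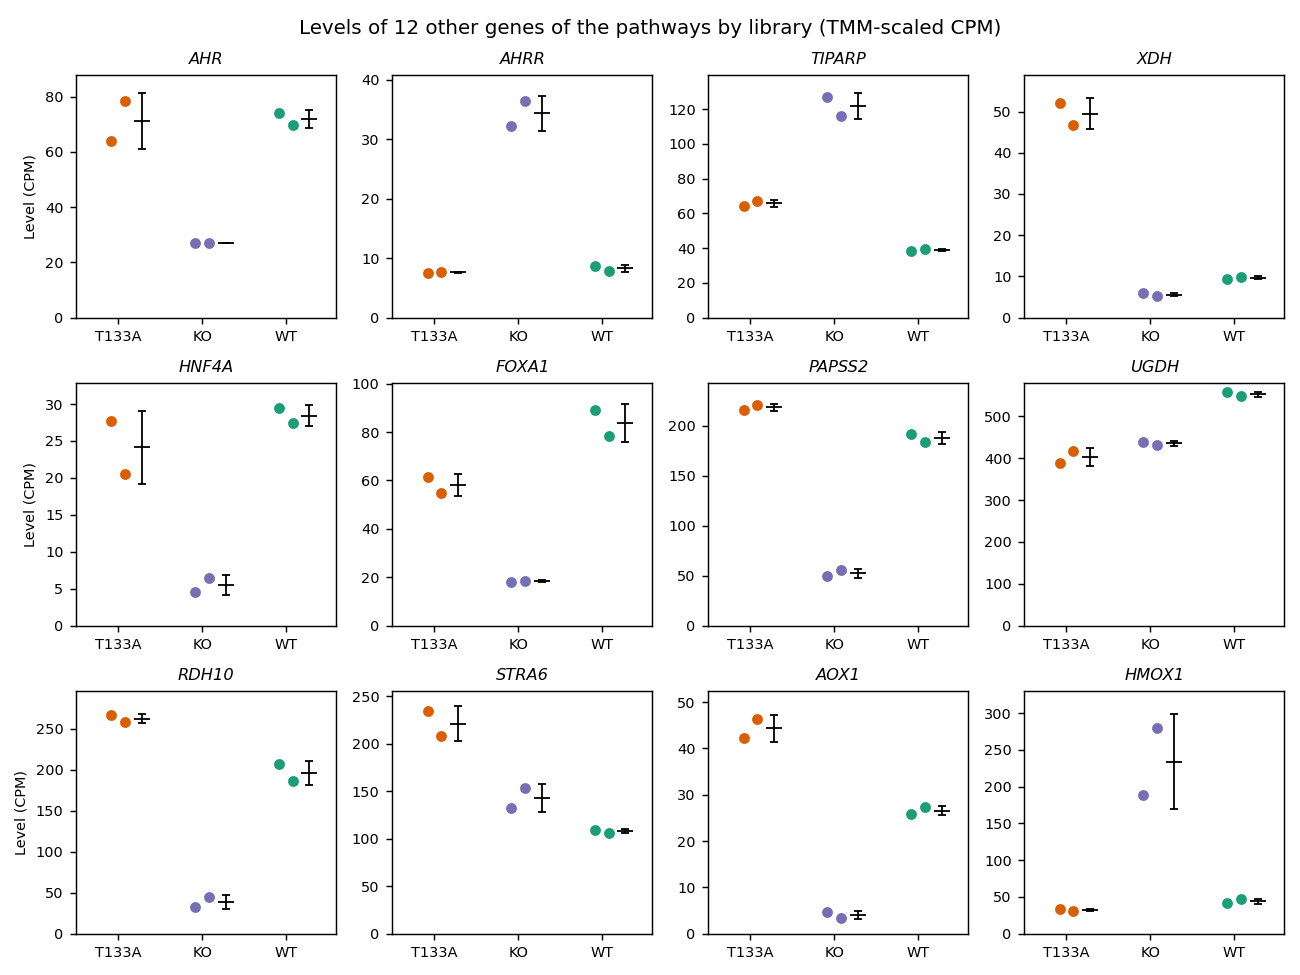
Levels of 12 regulators and other pathway genes in TMM-scaled CPM on linear axes from 0, with 1 point per library and the mean and SD of the 2 libraries beside each pair, for T133A, KO and WT. AHR, HNF4A, FOXA1, PAPSS2 and RDH10 are lowest in KO, while AHRR, TIPARP and HMOX1 are highest there.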

How the data were processed

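RNA-seq of 6 libraries, made from total RNA, was analysed. The authors deposited raw read counts and FPKM per gene; per the submitters' processing notes, HISAT2 2.0.5, featureCounts 1.5.0 and GRCh38 were used. Neither the strand setting nor the annotation version was given in the sources used here. FPKM values, as deposited, served only to compare levels between genes. Gene names that had been turned into dates were restored for 27 genes.

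Counts were filtered with filterByExpr (minimum count 10), scaled by TMM and fitted over all 3 groups with edgeR 4.0.16 in R 4.3.3 (glmQLFit and glmQLFTest, Benjamini-Hochberg adjustment over 16340 genes, threshold 0.05, biological coefficient of variation 8.96%). The scripts were tested on simulated data. A floor of 3 counts per library gave lower bounds where a group had none. These bounds use the observed mean of the higher group. They cover neither its counting error nor the spread between samples. Libraries held 16299059 to 18745432 counts. Python 3.11.15 was used for tables and figures.

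Members named by rule were called, changed by 1 or more on the log2 scale and reached 5 CPM in the higher group, or were the 3 most abundant of a family per length, and up to 2 called genes were named per pathway list and comparison. The members and lists were chosen with earlier results of these data known. Alternatives were other size factors, library size only, no low-count filter, a mean of at least 5 CPM, DESeq2 1.42.0, fits of only the groups compared, a GC and length correction, a replicate block, a minimum fold change and leaving out each library. Some genes and 1 of the motifs searched are not reported here.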

Additional observations from a re-analysis of the deposited data

How the results depend on the processing

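For the 23 members named by rule, 1094 values were recomputed under alternatives; 1045 kept direction and side of the threshold, 22 newly passed it, 27 no longer passed it and 0 reversed. Of 50 calls, 41 held under every alternative so recomputed. These recomputations left out the minimum fold change and any fit in which the gene was not tested. Calls with an absolute log2 fold change under 1 fail that minimum by definition. Of the counts in T133A against WT, 6 higher became 3 with library size only and 2 with a minimum log2 fold change of 1, and ranged from 2 to 6 when each library was left out; 7 lower became 11 with library size only, 11 with the GC and length correction and 4 with the minimum. In KO against WT, 7 higher became 11 with that correction, 11 with the replicate block and the correction, and 4 with the minimum, while 29 lower stayed within 20 to 32. In T133A against KO, 26 higher became 17 at a mean of at least 5 CPM; 9 lower became 5 there, 16 with the correction, 14 with the replicate block and the correction, 3 with the minimum, and 5 to 10 when each library was left out (5 without KO replicate 2). Fewer genes are tested at a mean of at least 5 CPM; otherwise the cause was not tested.

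The correlations of deviations between same-numbered libraries were -0.12 for T133A and KO, -0.05 for T133A and WT and 0.02 for KO and WT. With 2 libraries per group they cannot settle whether the replicate numbers pair the samples. With the replicate block the counts were 4 higher and 7 lower in T133A against WT, 6 and 29 in KO against WT, and 26 and 8 in T133A against KO. With crossed numbers, an alternative chosen after seeing the data, T133A against KO had 23 higher and 10 lower. Genes with few counts are limited by depth, since 3 counts correspond to 0.1615 to 0.182 CPM.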
